A study of Mus musculus with 72 samples.

Results

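The genes described here are 44 that make up the working parts of the lysosome in mouse macrophages, taken by gene symbol from a list of known lysosomal genes. Membership uses no measured value, although the list was drawn up with earlier results of these data known. They are 10 proteases and peptidases (Ctsa, Ctsb, Ctsc, Ctsd, Ctsh, Ctsl, Ctss, Ctsz, Lgmn, Tpp1), 6 membrane proteins (Lamp1, Lamp2, Cd63, Cd68, Scarb2, Mcoln1), 7 glycosidases (Gaa, Gla, Glb1, Hexa, Gusb, Manba, Naglu), 6 enzymes and cofactors of lipid and granulin handling (Lipa, Ppt1, Asah1, Smpd1, Psap, Grn), 7 genes of the membrane-embedded V0 part of the proton pump and its accessory subunits (Atp6v0a1, Atp6v0b, Atp6v0c, Atp6v0d1, Atp6v0d2, Atp6ap1, Atp6ap2), 6 genes of its catalytic V1 part (Atp6v1a, Atp6v1b2, Atp6v1c1, Atp6v1d, Atp6v1e1, Atp6v1h) and 2 transcription factors of lysosomal genes (Tfeb, Tfe3). They are 44 of 18472 genes listed in any of the tables. RNA was measured in 72 libraries, which form 24 groups of 3 in 4 experiments.

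The first experiment used macrophages grown from bone marrow of C57BL/6J mice over 7 days in L929 cell supernatant. The mutant genotype is labelled Setd1bKO. The other carries the genotype label Setd1bHet and sample names that call it wild type, and it is called control below. The other 3 experiments used RAW264.7, a male BALB/c macrophage line, as Setd1aDel/+ cells, called Setd1aDel below and heterozygous for the deletion by that label, and as wild-type cells. The labels do not say how many clones the Setd1aDel cells come from, and they do not give the part of either gene that was removed. SETD1A and SETD1B are enzymes that methylate lysine 4 of histone H3. In the marrow experiment and the first RAW264.7 experiment, cells received 1 uM Dex for 16 h together with 100 ng/ml LPS for the last 6 h, the 0.1% ethanol carrier for 16 h with LPS for 6 h, or vehicle alone. The second RAW264.7 experiment used 6 h for both agents and had a further group with Dex alone. The third gave LPS for 6 h with 10 ng/ml IFNB1 or without it. The LPS dose is the one on the sample labels, and the treatment text gives the same figure per ul. The marrow cells are labelled female, while the growth text speaks of male mice. LPS (lipopolysaccharide) is a bacterial cell wall product that activates macrophages, Dex is a glucocorticoid, and IFNB1 is a type I interferon. Nothing in the labels says that the 3 libraries of a group came from separate animals or cultures, so p-values measure the spread between these libraries only.

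Lysosomes are acidic compartments in which macrophages break down engulfed material. The vacuolar proton pump, with its V1 part splitting ATP in the cytosol and its V0 part carrying protons through the membrane, sets the low pH at which cathepsins, glycosidases and lipases work. TFEB and TFE3 move to the nucleus when lysosomes are stressed or nutrients are scarce and bind a short DNA element, with the core CACGTG, near many lysosomal genes.

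That core was searched for in the RefSeq promoter windows of the GRCm38.p6 build, which run from 250 bases before to 50 bases after each start site. A window was found for 37 of the 44 members. CACGTG, which reads the same on both strands, was in 13 of these 37 (35.1%), against 2187 of 27025 genes with a window (8.09%). The longer TCACGTG on either strand, which contains it, was in 12 members (32.4%), against 1160 genes (4.29%). The 13 are Ctsa, Ctsd, Ctsl, Lgmn, Lamp1, Mcoln1, Gaa, Gla, Glb1, Naglu, Atp6v0b, Atp6v0d1 and Atp6v1a. No window found for the genes of lipid and granulin handling or for the transcription factors held it. The 7 stretches below come from the proteases, membrane proteins, glycosidases and pump genes, and are printed 5′ to 3′ on the gene's strand with CACGTG in capitals:
Lgmn, chr12:102439109-102439168, minus strand: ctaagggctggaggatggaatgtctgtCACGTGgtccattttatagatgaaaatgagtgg
Lamp1, chr8:13159073-13159132, plus strand: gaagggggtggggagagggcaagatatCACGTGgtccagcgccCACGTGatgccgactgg
Mcoln1, chr8:3500421-3500480, plus strand: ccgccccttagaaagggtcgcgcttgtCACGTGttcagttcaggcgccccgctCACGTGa
Glb1, chr9:114401003-114401062, plus strand: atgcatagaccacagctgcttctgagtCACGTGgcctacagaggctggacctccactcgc
Naglu, chr11:101069994-101070053, plus strand: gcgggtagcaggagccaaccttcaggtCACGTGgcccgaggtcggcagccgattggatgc
Atp6v0b, chr4:117887333-117887392, minus strand: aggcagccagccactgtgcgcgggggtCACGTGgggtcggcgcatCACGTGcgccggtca
Atp6v1a, chr16:44139358-44139417, minus strand: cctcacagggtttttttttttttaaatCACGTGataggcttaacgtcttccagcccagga
The first core begins 49 bases before the start site in Lgmn, 61 in Lamp1, 71 in Mcoln1, 48 in Glb1, 73 in Naglu, 36 in Atp6v0b and 131 in Atp6v1a, and Lamp1, Mcoln1 and Atp6v0b hold it more than once. By the annotation of this build, the members followed most closely below are Tfeb (ENSMUSG00000023990) at chr17:47737030-47792419 and Ctsc (ENSMUSG00000030560) at chr7:88278085-88310888, both on the plus strand, and Lipa (ENSMUSG00000024781) at chr19:34492318-34527474 and Atp6v0d2 (ENSMUSG00000028238) at chr4:19876841-19922605, both on the minus strand. A match describes the letters in the window and is not a measured binding site.

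The deposited values are TPM, shares of a library's transcripts that are scaled for transcript length, so levels can be set side by side between genes. Read depth is unknown. The marrow table lists 42 of the 44 members (not Ctsl and Cd63), the table of both Dex experiments in RAW264.7 lists 41 (not Ctsh, Ctsl and Cd63), and the IFNB1 table lists 44, of which Ctsh, at 1.2 TPM or less, was under the filter. Il1b, a gene switched on by LPS, stood at 12286, 12096 and 12220 TPM in marrow control cells with LPS, against 15.9, 16.4 and 14.3 TPM with vehicle, and Tsc22d3, a glucocorticoid target, at 103, 90.8 and 78.6 TPM with Dex and LPS, against 1.96, 1.35 and 2.74 TPM with LPS. Setd1a was at 20.6, 27.7 and 25.8 TPM in Setd1aDel cells given vehicle in the 16 h experiment, against 46.8, 37.3 and 32.8 TPM in wild type. In the 6 h experiment its values overlapped between genotypes with vehicle, 22.3, 14.6 and 14.4 TPM against 23.7, 22 and 26.8 TPM. Setd1b was not lower in the libraries labelled Setd1bKO. With vehicle it read 10.3, 9.65 and 10.2 TPM there, against 3.8, 5.13 and 4.7 TPM in control, so every direction drawn from that genotype below rests on the label. Summed over 8 macrophage markers the level was 24189 to 24929 TPM in vehicle libraries labelled Setd1bKO, against 36455 to 37458 TPM in control. Over the 6 listed in the 16 h experiment it was 22324 to 23435 TPM in Setd1aDel vehicle libraries, against 2200 to 2551 TPM in wild type, most of it Lyz2 at 21026, 21013 and 22124 TPM against 1217, 1482 and 1518 TPM. Wild-type RAW264.7 cells themselves summed to 8274 to 8627 TPM in the 6 h experiment. Markers of dendritic, B, T and fibroblast cells summed to at most 1.2 TPM in the IFNB1 table. The 4 neutrophil markers listed there, of 7, summed to 4.8 to 11.5 TPM in Setd1aDel libraries and 1 to 2.5 TPM in wild type. Dendritic, B, T and fibroblast markers are not listed in the other tables, so such cells in the marrow cultures cannot be judged from them.

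Lysosomal genes took up far more of the listed RNA in marrow-derived macrophages than in RAW264.7 cells. Summed over the listed members, marrow control cells reached 54745, 55737 and 55804 TPM with vehicle, which is 6.48% of the listed TPM, while wild-type RAW264.7 libraries given vehicle summed to 6318, 6870 and 6631 TPM in the 16 h experiment and 7512, 7499 and 7346 TPM in the 6 h experiment. These tables were normalized separately, so the levels stand side by side without a test. In marrow control cells the aspartic protease gene Ctsd was the most abundant member at 14462, 14647 and 14701 TPM. It was followed by the cysteine protease gene Ctsb at 9862, 10096 and 10127 TPM, by Psap, the precursor of the sphingolipid activator proteins, at 8010, 8238 and 8242 TPM, and by the antigen-processing protease gene Ctss at 5576, 5600 and 5602 TPM. None of these 4 overlapped with its neighbour in this order. The least abundant were Smpd1, the acid sphingomyelinase gene, at 16.7, 17.5 and 17.9 TPM and Manba, a beta-mannosidase gene, at 17.1, 18.4 and 17.9 TPM, and these 2 did overlap. The order differed in RAW264.7 cells, where Ctsb led at 983, 1008 and 952 TPM in the 6 h experiment, ahead of Ctsd at 744, 746 and 746 TPM.

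**Figure D1:**
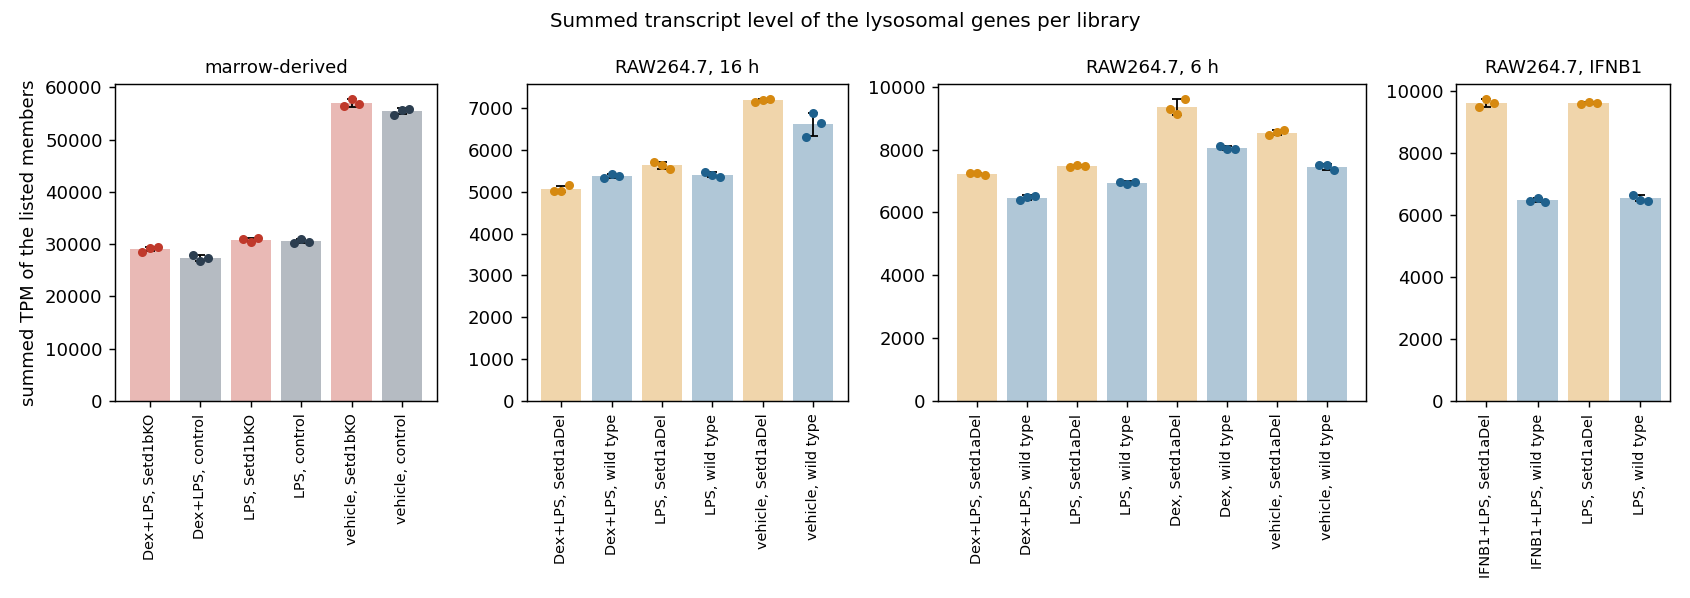
Summed TPM of the listed members in each group of the 4 experiments, with bars for the mean, error bars for the SD over 3 libraries and points for single libraries, and with a separate scale in each panel. Marrow control libraries average 30614 TPM with LPS against 55429 TPM with vehicle, and no RAW264.7 library exceeds 9737 TPM.

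With LPS the summed member level in marrow control cells was 30294, 31053 and 30493 TPM, against 54745, 55737 and 55804 TPM with vehicle. In wild-type RAW264.7 cells it stood at 5461, 5411 and 5355 TPM with LPS against 6318, 6870 and 6631 TPM with vehicle in the 16 h experiment, and at 6962, 6917 and 6981 TPM against 7512, 7499 and 7346 TPM in the 6 h experiment. The LPS libraries lay below the vehicle libraries in each of the 3 experiments. On the same unscaled values the median log2 change of all genes was also below 0. It was -0.49 in marrow control cells, and -0.38 and -0.24 in wild type of the 16 h and 6 h experiments. No sums were made after scaling. These sums were not tested. In bulk RNA, fewer cells with a transcript and less of it per cell cannot be told apart.

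Gene by gene, 37 of the 42 members tested were lower and 2 were higher after LPS in marrow control cells, at an adjusted p under 0.05 in limma on log2(TPM + 1). The background was wide: of 9159 genes tested, 64.7% were lower and 20.6% higher. The median log2 change was -0.80 over the members and -0.49 over all genes. Median-of-ratios scaling, which brings the median of all genes near 0, gave 30 members lower and 7 higher, against 38.9% of all genes in each direction. In macrophages labelled Setd1bKO, 38 were lower and 3 higher, against 58.2% and 24.9% of all genes, with 35 and 6 after scaling, against 39.6% and 39.2%. Of 7 neutrophil markers the marrow table lists 1, which was also higher with LPS, at 147 to 155 TPM against 37.6 to 41.9 TPM in control cells. The 8 macrophage markers summed to 23161 to 25122 TPM with LPS against 36455 to 37458 TPM with vehicle in control cells. The part of either in these results was not tested. In wild-type RAW264.7 cells of the 6 h experiment the 1 neutrophil marker listed, of 7, was also higher with LPS. It read 73.3 to 79.9 TPM against 5.28 to 6.28 TPM with vehicle.

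On the unscaled values, the share of members that were lower in wild-type RAW264.7 cells lay near the share over all genes. The median log2 change in wild type was -0.52 over the members and -0.38 over all genes in the 16 h experiment, and -0.29 and -0.24 in the 6 h experiment. Of 41 tested in the 16 h experiment, 28 were lower and 11 higher in wild type, against 66.1% and 17.4% of all genes, and 27 were lower and 11 higher in Setd1aDel cells, against 66.4% and 18.4%. Scaling changed these splits to 22 lower and 16 higher in wild type, against 38.2% and 38.8% of all genes, and to 23 and 16 in Setd1aDel, against 39.8% and 40.6%. The 6 h experiment gave 23 lower and 12 higher in wild type, against 52.3% and 19.5% of all genes and 25 lower and 10 higher in Setd1aDel, against 49.2% and 20.4%. After scaling these were 19 lower and 18 higher in wild type, against 33.8% and 34.2%, and 22 and 16 in Setd1aDel, against 33.3% and 33%.

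The glycosidases, which take sugars off glycoproteins and glycolipids, were the role in which LPS had the same direction throughout: all 7 were lower in each of the 6 comparisons of LPS with vehicle, and after scaling 6 of 7 in wild type of the 16 h experiment and 7 of 7 in the others. Of all genes 49.2% to 66.4% were lower in these 6 comparisons, and 33.3% to 39.8% after scaling. Naglu, whose enzyme acts on heparan sulfate, read 27.3, 28.2 and 28.2 TPM with LPS, against 65.5, 68 and 71.4 TPM with vehicle in marrow control cells, a log2 change of -1.26 ± 0.044 (standard error, n = 3 libraries a group), and -0.74 after scaling. It read 7.04, 7.68 and 7.43 TPM against 16.8, 18.9 and 16.9 TPM in wild-type RAW264.7 cells of the 16 h experiment, and 9.04, 8.47 and 8.44 TPM against 20.8, 19.5 and 21.1 TPM in the 6 h experiment. With LPS every library lay below every vehicle library. Manba was at 3.05, 2.77 and 2.94 TPM in marrow control cells with LPS, against 17.1, 18.4 and 17.9 TPM with vehicle (-2.26 ± 0.084), the largest fall among the glycosidases there. Hexa, a beta-hexosaminidase subunit gene, had log2 changes of -1.11 ± 0.029 in marrow control cells and of -0.92 ± 0.036 and -0.67 ± 0.030 in wild-type cells of the 16 h and 6 h experiments, and scaling brought these to -0.58, -0.51 and -0.41. Gla, which removes terminal galactose from lipids, fell by 1.13 on the log2 scale in wild-type RAW264.7 cells of the 16 h experiment and by 0.92 in the 6 h experiment.

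The proteases split. Lgmn, an asparagine-specific protease, fell to 212, 210 and 209 TPM with LPS, against 518, 509 and 514 TPM with vehicle in marrow control cells, and to 78.3, 76.3 and 76.2 TPM against 219, 225 and 230 TPM in wild-type RAW264.7 cells of the 16 h experiment (log2 -1.53 ± 0.028, adjusted p = 9.71e-17). Ctsc, which trims and so activates serine proteases of immune granules, went the other way. It reached 349, 372 and 363 TPM with LPS in marrow control cells, against 43.2, 44.1 and 44.8 TPM with vehicle, a log2 change of 3.01 ± 0.035 (adjusted p = 2.18e-19). It was also higher in the 6 h experiment, at 69.9, 62.2 and 73.3 TPM against 20.6, 20.8 and 21.8 TPM in wild type. In the 16 h experiment wild-type cells had 18.3, 17.7 and 15.8 TPM with LPS and 15.3, 14.2 and 16 TPM with vehicle, so these groups overlapped, although the fit placed a log2 change of 0.18 past the threshold (0.56 after scaling). That call was lost when the compared groups were fitted alone, and without wild-type LPS replicate 1 or 2 or wild-type vehicle replicate 2 (0.13 to 0.16). Ctsz, a carboxypeptidase gene, was higher by 0.84 ± 0.030 in wild-type RAW264.7 cells of the 16 h experiment and by 0.73 ± 0.028 in the 6 h experiment, while in marrow control cells it read 1304, 1280 and 1305 TPM with LPS and 1316, 1354 and 1378 TPM with vehicle (log2 -0.06, not called, but 0.48 and called after scaling).

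All 6 genes of lipid and granulin handling were lower with LPS in marrow cells of both genotypes, before and after scaling. Of all genes 64.7% were lower in control and 58.2% where labelled Setd1bKO (38.9% and 39.6% after scaling). Lipa encodes the acid lipase that frees cholesterol and fatty acids. In marrow control cells it read 381, 389 and 369 TPM with LPS, against 1220, 1251 and 1214 TPM with vehicle (-1.69 ± 0.047). Its direction was not shared by the 2 RAW264.7 experiments: in wild type it read 123, 118 and 121 TPM with LPS against 254, 264 and 253 TPM in the 16 h experiment, and 239, 234 and 231 TPM with LPS against 142, 142 and 141 TPM in the 6 h experiment. Psap was lower in all 3, with a log2 change of -1.34 ± 0.034 in wild type of the 16 h experiment and -0.85 ± 0.028 in the 6 h experiment. Smpd1 fell by 1.38 on the log2 scale in marrow control cells, a value that median-of-ratios scaling reduced to -0.90.

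The membrane proteins carry the lysosome's inner glycoprotein coat and its channels. All 5 tested were lower with LPS in marrow control cells, although scaling left 3 lower and put 2 higher. In wild-type RAW264.7 cells 4 of 5 were lower in the 16 h experiment (3 lower and 1 higher after scaling), and 4 were lower and 1 higher in the 6 h experiment (2 and 1 after scaling). Of all genes 64.7%, 66.1% and 52.3% were lower in control or wild-type cells of the marrow, 16 h and 6 h experiments. After scaling these shares were 38.9%, 38.2% and 33.8%, with 38.9%, 38.8% and 34.2% higher. Lamp1, a main coat glycoprotein gene, fell to 817, 844 and 795 TPM with LPS, against 1307, 1370 and 1355 TPM with vehicle in marrow control cells (log2 -0.72 ± 0.032, and -0.18 after scaling). In wild-type cells its log2 change was -0.82 in the 16 h experiment and -0.40 in the 6 h experiment (-0.41 and -0.13 after scaling). Mcoln1, a calcium channel gene, read 21.2, 21 and 22.2 TPM with LPS against 41, 37.2 and 39.2 TPM with vehicle in marrow control cells (-0.84 ± 0.081, and -0.32 after scaling). Lamp2 was lower in marrow control cells (-0.23 ± 0.044, but 0.30 after scaling) and higher in wild-type cells of the 6 h experiment (0.21 ± 0.051, and 0.47 after scaling). Its direction thus differed between experiments on the unscaled values only. After scaling Lamp2 was higher and Lamp1 lower in all 3 experiments.

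Among the proton pump genes, the V1 subunit gene Atp6v1e1 rose with LPS in all 3 experiments, before and after scaling. Atp6v0b and Atp6v1h were higher in all 3 only after scaling. Of the other 12 pump genes, 10 were lower and 0 higher in marrow control cells, where 64.7% of all genes were lower, and 6 were lower and 2 higher after scaling. In wild-type RAW264.7 cells of the 16 h experiment 4 of 6 V1 genes were higher and 2 lower, and of 7 V0 genes 2 and 4. The 6 h experiment gave 4 and 1 for V1, and 2 and 3 for V0. After scaling V1 had 5 and 1, then 5 and 0, and V0 had 5 and 2, then 4 and 2. The shares of all genes are those given above. Atp6v1e1 stood at 711, 741 and 707 TPM with LPS in marrow control cells, against 371, 363 and 366 TPM with vehicle (0.97 ± 0.036, and 1.51 after scaling). Atp6v0a1 encodes an isoform of the large membrane subunit. In marrow control cells it read 68.8, 59.7 and 61.6 TPM with LPS against 233, 231 and 217 TPM with vehicle, and in wild-type RAW264.7 cells of the 16 h experiment it read 34.4, 31.1 and 39.9 TPM with LPS against 10.6, 12.4 and 11.8 TPM with vehicle. The log2 changes were -1.82 ± 0.12 and 1.51 ± 0.13, with no overlap between groups in either. Atp6v1a, the catalytic subunit gene, fell to 263, 278 and 245 TPM with LPS, against 581, 588 and 575 TPM with vehicle in marrow control cells (-1.15 ± 0.098, and -0.61 after scaling). Its partner Atp6v1b2 was lower in those cells (-0.98 ± 0.030) and higher in wild-type cells of the 16 h and 6 h experiments (0.18 ± 0.054 and 0.41 ± 0.047). Atp6v0c, the proton-carrying ring subunit gene, also fell in marrow control cells (-0.62 ± 0.035, a call lost after scaling at -0.09) and rose in wild-type cells of the 6 h experiment (0.29 ± 0.074).

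Atp6v0d1 and Atp6v0d2 encode alternative forms of the same V0 subunit, the d2 form being known for osteoclasts and macrophages. In marrow control cells Atp6v0d2 was the more abundant with vehicle, at 786, 807 and 797 TPM, beside Atp6v0d1 at 181, 197 and 186 TPM. With LPS Atp6v0d2 fell to 190, 211 and 181 TPM (log2 -2.03 ± 0.058, adjusted p = 1.63e-14), and Atp6v0d1 read 130, 123 and 125 TPM (-0.57, a call lost after scaling at -0.04). RAW264.7 cells had little Atp6v0d2: 2.85, 3 and 2.99 TPM with vehicle in the 16 h experiment, where Atp6v0d1 stood at 43.8, 45.8 and 44.2 TPM. Even at that level LPS lowered it, to 0.79, 1.07 and 0.726 TPM in the 16 h experiment and to 1.36, 1.55 and 0.904 TPM, against 3.78, 3.65 and 3.92 TPM, in the 6 h experiment.

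Tfeb had the largest fall of the members tested in control or wild-type cells of all 3 experiments. Marrow control cells had 3.83, 3.03 and 3.65 TPM with LPS and 35.2, 32.9 and 33.7 TPM with vehicle (log2 -2.96 ± 0.10, adjusted p = 1.47e-13). Wild-type RAW264.7 cells had 0.757, 0.522 and 0.858 TPM against 14.4, 11.3 and 12.4 TPM in the 16 h experiment (-3.00 ± 0.12) and 1.86, 1.92 and 1.21 TPM against 9.36, 12.4 and 12.6 TPM in the 6 h experiment (-2.22 ± 0.19). With a pseudocount of 1 TPM these values understate changes that reach so low. Tfe3, its relative, moved in no common direction: it read 36.5, 36.2 and 40.4 TPM with LPS against 64.1, 56.9 and 61.9 TPM with vehicle in marrow control cells, where the call was lost after scaling, and was higher by 0.50 ± 0.042 and 0.70 ± 0.063 in wild-type RAW264.7 cells of the 16 h and 6 h experiments.

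Of the 41 members tested in all 3 experiments, 23 were lower with LPS in control or wild-type cells of each, 2 (Ctsc and Atp6v1e1) were higher in each, and 9 were called in opposite directions in different experiments. Of 8268 genes tested in all 3, 41.8% were lower in each, 9.41% higher in each and 12.4% called in opposite directions. After scaling, 15 members were lower in each and 6 higher in each, against 20.2% and 22.8% of all genes. The 3 experiments share no libraries. Among the 12 tested members with CACGTG in the promoter window, 10 were lower in all 3 experiments. These include Lgmn, Lamp1, Mcoln1, Glb1, Naglu and Atp6v1a, printed above, but not Atp6v0b, also printed above, or Atp6v0d1. Of the 23 with a window that lacks it, 11 were lower in all 3. After scaling these counts were 6 (without Ctsd, Mcoln1, Gaa and Atp6v1a) and 7, and Atp6v0b was higher in all 3. No test was made of that difference.

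**Figure D2:**
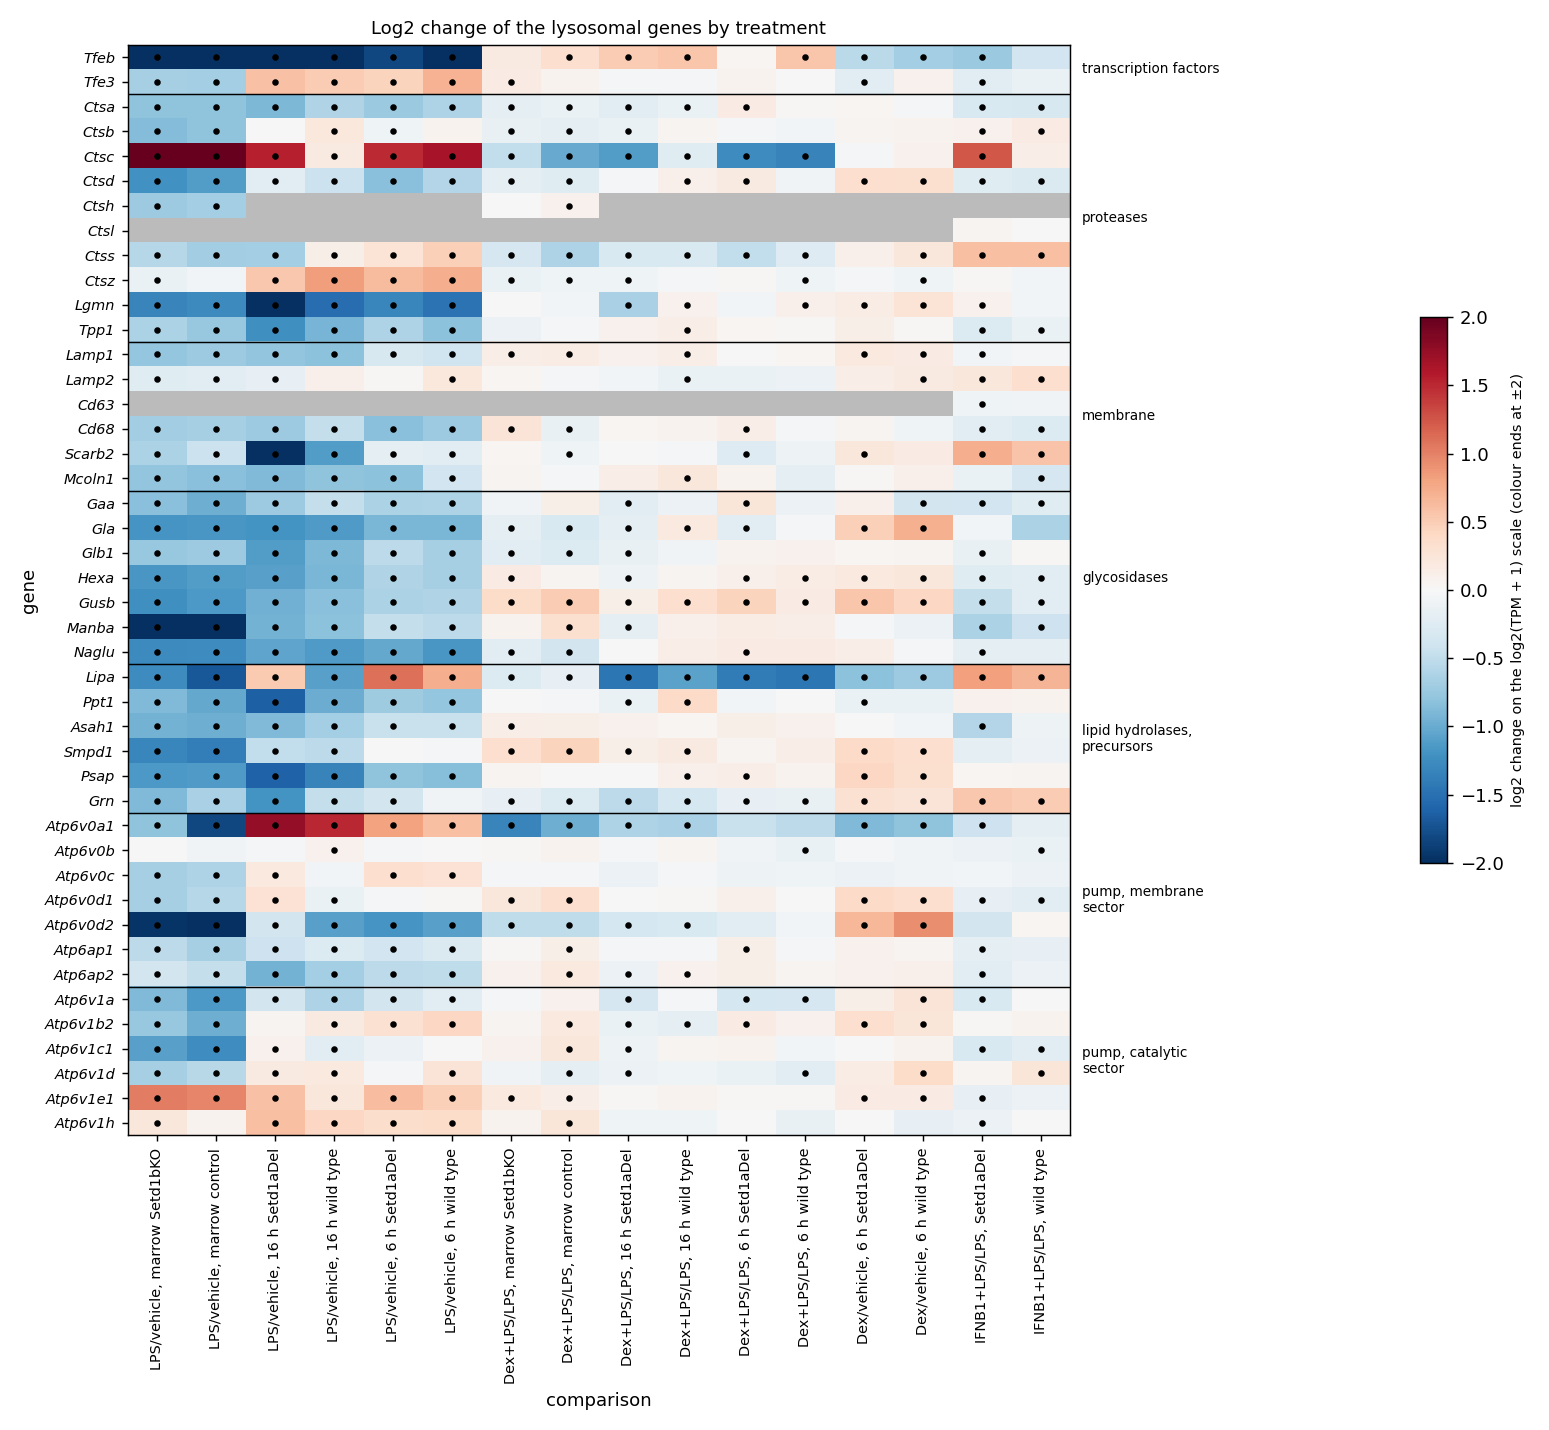
Log2 change of each member (rows, by role) for LPS over vehicle, Dex plus LPS over LPS, Dex over vehicle and IFNB1 plus LPS over LPS (columns), with colour ending at 2 in either direction, dots for members called at an adjusted p under 0.05 and grey for members not tested. The glycosidases are lower in every column of LPS over vehicle, and Tfeb is at -2.96, -3.00 and -2.22 in control or wild-type cells.

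Other genes of the same pathways, not among the 44, were also lower with LPS more often than higher, as were all genes. The shares of all genes lower and higher were those given above, 64.7% and 20.6% in marrow control cells, 66.1% and 17.4% in wild type of the 16 h experiment and 52.3% and 19.5% in the 6 h experiment. Of 45 further lysosomal genes tested in marrow control cells 39 were lower and 5 higher, of 42 in wild-type RAW264.7 cells 36 were lower and 5 higher in the 16 h experiment, and 31 and 7 in the 6 h experiment. Sgsh, another heparan sulfate enzyme, was at 0.961, 0.658 and 0.617 TPM with LPS in marrow control cells, against 13.7, 16.9 and 15.5 TPM with vehicle (log2 -3.23), and fell by 2.70 and 2.34 in wild-type cells of the 16 h and 6 h experiments. Slc11a1, a metal ion transporter of phagosomes, rose in wild-type RAW264.7 cells, to 36.5, 34.6 and 37.5 TPM with LPS against 12, 11.5 and 11.4 TPM in the 16 h experiment (1.56). Among regulators of TFEB and genes of autophagy, 24 of 32 were lower and 4 higher in marrow control cells, 20 and 4 of 30 in the 16 h experiment and 13 and 8 of 30 in the 6 h experiment. The autophagy receptor gene Sqstm1 was among those that rose, at 1240, 1130 and 1214 TPM with LPS against 336, 366 and 353 TPM in marrow control cells, as did Tfec, of the same family as Tfeb, at 118, 103 and 109 TPM against 11.7, 13 and 13.1 TPM, while Rragd, a nutrient-sensing GTPase gene, fell to 2.54, 2.88 and 3.07 TPM against 17.6, 19.2 and 19.3 TPM. Of 9 further pump genes, 6, 6 and 5 were lower and 0, 3 and 2 higher in the marrow, 16 h and 6 h experiments. In wild-type RAW264.7 cells the share lower lay near or below that of all genes for these and for the TFEB and autophagy genes. Counts after scaling are not given for these lists.

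In control or wild-type cells, adding Dex to LPS gave summed member levels a little below those with LPS alone in 2 of the 3 experiments. The sum was 27876, 26701 and 27344 TPM with Dex and LPS, against 30294, 31053 and 30493 TPM with LPS in marrow control cells, and 6400, 6497 and 6533 TPM against 6962, 6917 and 6981 TPM in wild-type cells of the 6 h experiment. In wild type of the 16 h experiment the groups overlapped, at 5329, 5434 and 5374 TPM against 5461, 5411 and 5355 TPM. In the mutant genotypes the Dex libraries lay below the LPS libraries in all 3, at 28537, 29190 and 29362 TPM with Dex and LPS against 30955, 30472 and 31140 TPM with LPS where labelled Setd1bKO, at 5011, 5021 and 5155 TPM against 5706, 5646 and 5543 TPM in Setd1aDel cells of the 16 h experiment, and at 7245, 7251 and 7183 TPM against 7461, 7515 and 7495 TPM in those of the 6 h experiment. These sums were not tested.

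The number of members called in each direction depended on the scaling. In marrow control cells 13 of 42 were higher and 16 lower with Dex, against 44.8% and 15.2% of all genes, and after scaling 2 were higher and 27 lower, against 20.6% and 26.8%. In those labelled Setd1bKO 9 were higher and 13 lower, against 39.2% and 13.5%, and after scaling 2 and 27, against 15.3% and 23.8%. The neutrophil marker was higher with Dex there, at 449.5 to 521 TPM against 155 to 180 TPM, and in control, at 273 to 303 TPM against 147 to 155 TPM, and the macrophage marker sum was higher in both, at 17143 to 17876 TPM against 16065 to 16298 TPM where labelled Setd1bKO and at 26225 to 27883 TPM against 23161 to 25122 TPM in control. Their part in these counts was not tested. The neutrophil marker listed for RAW264.7 cells was also higher with Dex in wild type of the 6 h experiment, at 187 to 206 TPM against 73.3 to 79.9 TPM. Wild-type RAW264.7 cells of the 16 h experiment gave 12 higher and 9 lower of 41, against 35.2% and 12.3%, and Setd1aDel cells 3 higher and 21 lower, against 29.8% and 14.9%. After scaling these were 3 and 18 in wild type, against 19.8% and 23.3% of all genes, and 1 and 27 in Setd1aDel, against 22.6% and 21.6%. For Setd1aDel cells, fitting the 2 compared groups alone gave 0 higher and 10 lower. The 6 h experiment gave 4 higher and 8 lower in wild type, against 14.7% and 10.6%, and 10 higher and 7 lower in Setd1aDel, against 22.1% and 10.7%. After scaling these were 3 and 12 in wild type, against 11.1% and 13.9%, and 4 and 12 in Setd1aDel, against 16.1% and 15.8%.

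In control or wild-type cells 4 members, Ctsc, Ctss, Grn and Lipa, were lower with Dex in all 3 experiments, and 2, Tfeb and the beta-glucuronidase gene Gusb, were higher in all 3, against 4.22% and 6.77% of the 8268 genes tested in all 3. After scaling 7 were lower in all 3, the same 4 with Atp6v1d, Ctsz and Lamp2, and Gusb alone was higher, against 7.13% and 2.6% of all genes. Ctsc stood at 185, 175 and 177 TPM with Dex and LPS, against 349, 372 and 363 TPM with LPS in marrow control cells (log2 -1.01 ± 0.035), and at 27, 26.3 and 25.7 TPM against 69.9, 62.2 and 73.3 TPM in wild type of the 6 h experiment (-1.34 ± 0.065). Lipa in wild-type RAW264.7 cells fell to 57, 59.8 and 54.9 TPM, against 123, 118 and 121 TPM, in the 16 h experiment (-1.07 ± 0.043) and to 83.8, 87 and 86 TPM, against 239, 234 and 231 TPM, in the 6 h experiment (-1.44 ± 0.039, adjusted p = 9.04e-16). No Dex library of either gene reached an LPS library in these comparisons.

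Ctss read 2357, 2197 and 2232 TPM with Dex and LPS in marrow control cells, against 3378, 3602 and 3418 TPM with LPS (-0.62 ± 0.032), and Atp6v0a1 33.7, 28.9 and 33.3 TPM against 68.8, 59.7 and 61.6 TPM (-0.97 ± 0.12). Gusb read 272, 275 and 291 TPM against 203, 196 and 194 TPM in those cells (0.50 ± 0.038, and 0.28 after scaling), 149, 147 and 143 TPM against 113, 115 and 117 TPM in wild type of the 16 h experiment, and 136, 138 and 144 TPM against 120, 123 and 128 TPM in the 6 h experiment. The Tfeb call was less stable. With Dex and LPS Tfeb was at 5.01, 3.8 and 5.19 TPM, against 3.83, 3.03 and 3.65 TPM with LPS in marrow control cells, where the groups overlapped (log2 0.33) and the call was lost after scaling (0.16). In wild type of the 16 h experiment it was at 1.35, 1.3 and 1.9 TPM against 0.757, 0.522 and 0.858 TPM (0.55 ± 0.12, and 1.00 with a pseudocount of 0.1 TPM).

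Dex alone, given for 6 h to RAW264.7 cells, moved more members up than down. Wild-type cells had 17 of 41 higher and 5 lower, against 12% and 24.8% of all genes, and Setd1aDel cells had 14 higher and 5 lower, against 12% and 18.3%. Summed members reached 8121, 8010 and 8006 TPM with Dex, against 7512, 7499 and 7346 TPM with vehicle in wild type. Gla was at 35.1, 34.7 and 35.6 TPM against 21.9, 21.2 and 20.4 TPM (log2 0.71 ± 0.066), Atp6v0d2 at 9.02, 7.32 and 8.16 TPM against 3.78, 3.65 and 3.92 TPM (0.93 ± 0.17), and Psap at 497, 494 and 481 TPM against 387, 390 and 398 TPM (0.32 ± 0.028). Lipa fell here too, to 83.3, 84.1 and 89.1 TPM against 142, 142 and 141 TPM (-0.72 ± 0.039). Tfeb read 5.56, 8.04 and 6.79 TPM with Dex and 9.36, 12.4 and 12.6 TPM with vehicle, and this call (-0.68) was lost without wild-type Dex replicate 1 (-0.56).

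With IFNB1 added to LPS the summed level overlapped that with LPS alone in both genotypes, at 6452, 6537 and 6403 TPM with IFNB1 and LPS against 6633, 6485 and 6454 TPM with LPS in wild type. These are unscaled sums, and the median log2 change of all genes was -0.09 in wild type and -0.18 in Setd1aDel cells. Of 43 members tested in wild-type cells, 7 were higher and 12 lower, against 9.5% and 23.5% of all genes. After scaling these were 12 and 9, against 14.7% and 12.5%. In Setd1aDel cells 8 were higher and 23 lower, against 10.5% and 43.6%, and 16 and 7 after scaling, against 22.1% and 19.9%. Lipa stood at 184, 185 and 187 TPM against 117, 115 and 114 TPM in wild type (log2 0.68 ± 0.036), Ctss at 534, 545 and 531 TPM against 356, 358 and 345 TPM (0.60 ± 0.031), and Scarb2, the receptor that carries glucocerebrosidase to lysosomes, at 21.9, 22 and 21.7 TPM against 14.5, 13.7 and 15.1 TPM (0.57 ± 0.060). In Setd1aDel cells the same genes were higher by 0.82 ± 0.036, 0.60 ± 0.031 and 0.72 ± 0.060. Manba fell to 16.8, 18.8 and 17.9 TPM against 22.5, 22.8 and 27.5 TPM in wild type (-0.42 ± 0.075).

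Libraries labelled Setd1bKO had more of many lysosomal transcripts and less of a few. With vehicle, 20 of 42 members were higher and 6 lower than in control, against 9.89% and 15.4% of all genes. Scaling gave 23 and 4, against 11.1% and 14.4%. With LPS 25 were higher and 6 lower, against 29% and 12.4%, and 16 and 10 after scaling, against 15.9% and 19.9%. With Dex and LPS 23 were higher and 5 lower, against 23.5% and 11.5%. After scaling these were 17 and 6, against 12.9% and 16.5%. With vehicle 4 of 9 proteases were higher and 3 lower (4 and 2 after scaling), and 4 of 7 glycosidases were higher and 1 lower (5 and 0 after scaling). The summed macrophage markers were lower under every treatment, at 16065 to 16298 TPM against 23161 to 25122 TPM with LPS and at 17143 to 17876 TPM against 26225 to 27883 TPM with Dex and LPS, and their part in these counts was not tested.

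Naglu was the member with the largest rise with vehicle in the libraries labelled Setd1bKO, at 96.9, 98.6 and 96.4 TPM against 65.5, 68 and 71.4 TPM in control (log2 0.50 ± 0.044), and it was higher by 0.49 ± 0.044 with LPS and by 0.63 ± 0.044 with Dex and LPS. Those that fell included Ctss and Cd68, a heavily glycosylated protein of macrophage lysosomes. Ctss was at 2823, 2982 and 2962 TPM against 5576, 5600 and 5602 TPM in control (-0.94 ± 0.032). Cd68 was at 810, 834 and 854 TPM against 1527, 1571 and 1569 TPM (-0.90 ± 0.027), at 514, 510 and 516 TPM against 991, 948 and 996 TPM with LPS, and at 603, 615 and 613 TPM against 876, 868 and 900 TPM with Dex and LPS. Atp6v0d2 was at 434, 430 and 452 TPM against 786, 807 and 797 TPM with vehicle (-0.86 ± 0.058), and fell by 0.79 with LPS and again by 0.79 with Dex and LPS, while Atp6v0d1 read 218, 210 and 204 TPM against 181, 197 and 186 TPM with vehicle (0.16, a call lost without replicate 1 of either group). For each of these genes the vehicle groups did not overlap. Lipa read 1199, 1217 and 1228 TPM against 1220, 1251 and 1214 TPM with vehicle (log2 -0.02, not called) and was higher with LPS, at 494, 499 and 527 TPM against 381, 389 and 369 TPM. Tfeb read 43.4, 39.3 and 36.3 TPM against 35.2, 32.9 and 33.7 TPM with vehicle, and 2.72, 3.28 and 2.94 TPM against 3.83, 3.03 and 3.65 TPM with LPS, neither called, although after scaling the LPS difference was called (-0.27).

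How many members responded to LPS to a different extent in the libraries labelled Setd1bKO than in control depended on the scaling. The difference between the 2 responses was called for 3 members upward and 2 downward, against 16.4% and 5.43% of all genes. After scaling it was called for 2 and 14, against 8.56% and 10.3%. Atp6v0a1 had the largest difference. It fell less with LPS, reading 114, 106 and 128 TPM with LPS and 187, 201 and 219 TPM with vehicle where labelled Setd1bKO, against 68.8, 59.7 and 61.6 TPM with LPS and 233, 231 and 217 TPM with vehicle in control, a difference of 1.02 ± 0.17 (adjusted p = 0.000365). For Lipa the difference was 0.43 ± 0.066, and for Grn, the granulin precursor, -0.24 ± 0.043. The response to Dex differed upward for 3 members (Ctsc, Cd68 and Ctss, by 0.51, 0.40 and 0.27) and downward for 0, against 2.69% and 3.53% of all genes. At an unadjusted p under 0.05 those counts were 7 and 6.

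**Figure D3:**
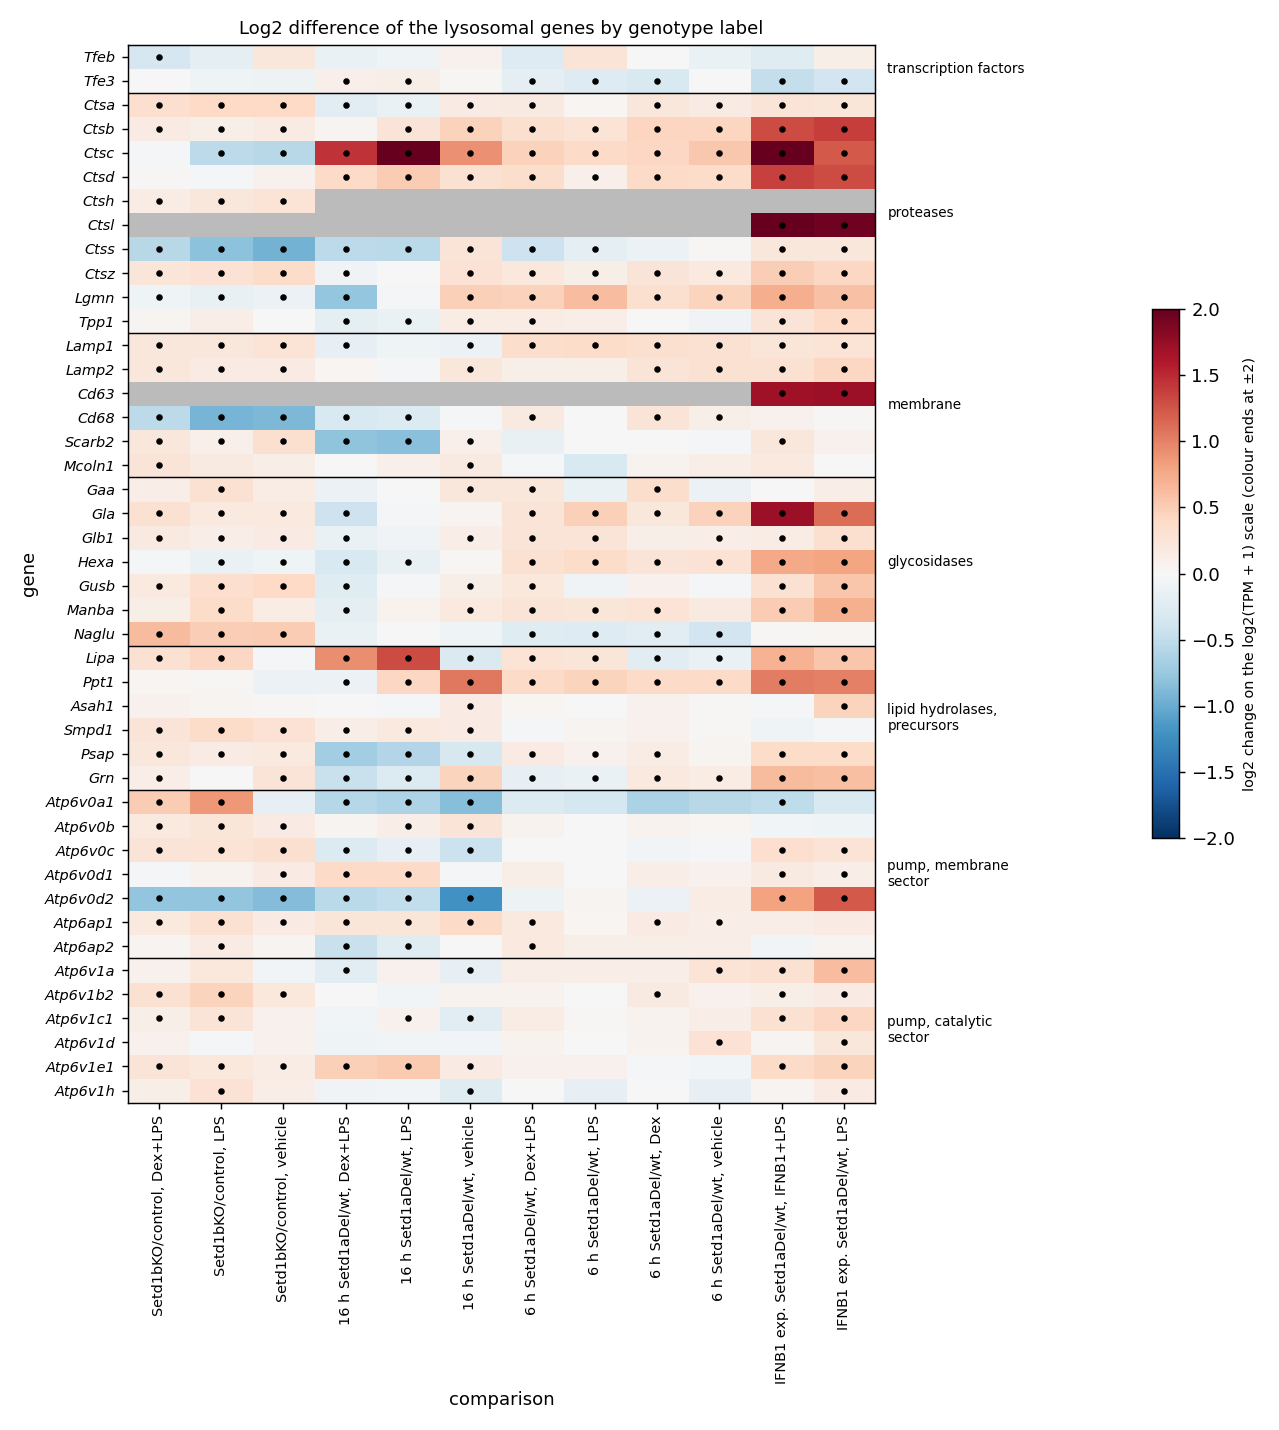
Log2 difference of each member (rows, by role) between libraries labelled Setd1bKO and control or between Setd1aDel and wild-type cells, under each treatment (columns), with colour ending at 2 in either direction, dots for members called at an adjusted p under 0.05 and grey for members not tested. The proteases are mostly higher in Setd1aDel cells with vehicle and in the IFNB1 experiment, and Ctss, Cd68 and Atp6v0d2 are lower in all 3 columns labelled Setd1bKO.

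In Setd1aDel cells the protease genes were higher with vehicle. All 8 tested in the 16 h experiment and 6 of 8 in the 6 h experiment were above wild type, with the same counts after scaling. After scaling 22% and 10.8% of all genes were higher in these experiments. Over all members, 22 of 41 were higher and 9 lower in the 16 h experiment, against 15.3% and 32.9% of all genes, and 17 were higher and 2 lower in the 6 h experiment, against 6.58% and 15.6%. The 2 experiments shared 11 members that were higher in both, namely Ctsa, Ctsb, Ctsc, Ctsd, Ctsz, Lgmn, Lamp2, Glb1, Ppt1, Grn and Atp6ap1, and of all genes tested in both 3.52% were higher in both and 8.58% lower in both. Lipa was lower in both, although not after scaling, and the experiments differed in direction for Lamp1 and Atp6v1a. Some of these calls were near the threshold: those of Lamp1 and Atp6v1a in the 16 h experiment were lost after scaling, and that of Glb1 in the 6 h experiment was lost without any 1 of the 6 compared libraries. The macrophage marker sum was higher in Setd1aDel vehicle libraries of both experiments, as given above for the first and at 10487 to 11325 TPM against 8274 to 8627 TPM in the second, and its part in these differences was not tested.

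Ppt1, the enzyme that removes palmitate from proteins, was at 326, 319 and 328 TPM in Setd1aDel cells with vehicle in the 16 h experiment, against 144, 159 and 161 TPM in wild type (log2 1.06 ± 0.047, adjusted p = 7.5e-11), and at 218, 229 and 217 TPM against 170, 173 and 164 TPM in the 6 h experiment (0.39 ± 0.050). Lgmn read 313, 312 and 317 TPM against 219, 225 and 230 TPM (0.48 ± 0.028) and 254, 263 and 262 TPM against 189, 189 and 191 TPM (0.45 ± 0.032). Ctsc read 30.3, 28.8 and 29.4 TPM against 15.3, 14.2 and 16 TPM, and 31.1, 31.2 and 30.9 TPM against 20.6, 20.8 and 21.8 TPM. No library of the 2 genotypes overlapped for these 3 genes. Pump genes made up most of the decreases in the 16 h experiment: 3 of 7 V0 genes and 3 of 6 V1 genes were lower, and after scaling 3 and 2. Of all genes 32.9% were lower there, and 21% after scaling. Atp6v0a1 was at 5.38, 6.64 and 5.94 TPM against 10.6, 12.4 and 11.8 TPM (-0.85 ± 0.13), and Atp6v0d2 at 0.942, 0.541 and 0.658 TPM against 2.85, 3 and 2.99 TPM (-1.21 ± 0.096, and -1.94 with a pseudocount of 0.1 TPM). In the 6 h experiment no V0 gene and no V1 gene was lower, and Atp6v0d2 read 3.45, 3.31 and 6.78 TPM against 3.78, 3.65 and 3.92 TPM (not called).

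With LPS, the difference between Setd1aDel and wild-type cells varied between the 3 RAW264.7 experiments. Of 41 members, 12 were higher and 12 lower in the 16 h experiment, against 17.5% and 42.4% of all genes. After scaling these were 17 and 8, against 26.7% and 29.9%. In the 6 h experiment 13 were higher and 4 lower, against 9.19% and 12.3%. In the IFNB1 experiment 31 of 43 were higher and 1 lower, against 17.7% and 24.9%, with a median log2 difference of 0.37 over the members and -0.05 over all genes. All 9 proteases tested and all 6 V1 genes were higher there, also after scaling, when 21.1% of all genes were higher. Marker sums were 9209 to 11017 TPM in Setd1aDel against 2803 to 3137 TPM in wild type in the 16 h experiment, 5754 to 6153 TPM against 6404 to 6501 TPM in the 6 h experiment, and 8355 to 8519 TPM against 4629 to 4677 TPM in the IFNB1 experiment. They were higher in the 16 h and IFNB1 experiments and lower in the 6 h experiment, and their part in the member counts was not tested.

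Ctsb, Ctsc, Ctsd, Lipa and Ppt1 were higher in Setd1aDel cells with LPS in all 3 experiments, also after scaling, and 0 members were lower in all 3, against 2.82% and 4.53% of all genes tested in each. Another 9 members were called in opposite directions, against 9.37% of all genes. The Ctsd call in the 6 h experiment, with a log2 difference of 0.10, was lost without Setd1aDel LPS replicate 2 or 3 or wild-type LPS replicate 1 or 2. Ctsc was at 92, 88.8 and 85.9 TPM against 18.3, 17.7 and 15.8 TPM in the 16 h experiment (log2 2.30 ± 0.062, adjusted p = 1.12e-13), at 83.8, 90.2 and 93.4 TPM against 69.9, 62.2 and 73.3 TPM in the 6 h experiment (0.38 ± 0.065), and at 82.7, 78.5 and 76.3 TPM against 34.4, 33.3 and 31.5 TPM in the IFNB1 experiment (1.23 ± 0.050). Across these experiments Setd1aDel libraries ranged from 76.3 to 93.4 TPM and wild-type libraries from 15.8 to 73.3 TPM. Ctsd was at 386, 386 and 377 TPM against 272, 272 and 267 TPM in the 16 h experiment (0.50 ± 0.035) and at 756, 756 and 749 TPM against 310, 302 and 296 TPM in the IFNB1 experiment (1.31 ± 0.024).

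With LPS alone, the largest differences between genotypes in the IFNB1 experiment were in genes that only this table lists. Ctsl, a cysteine protease gene, read 689, 668 and 674 TPM in Setd1aDel cells with LPS, against 175, 175 and 171 TPM in wild type (log2 1.95 ± 0.028, adjusted p = 2.46e-12). Cd63, a tetraspanin of late endosomes and lysosomes, read 517, 530 and 525 TPM against 159, 162 and 158 TPM (1.71 ± 0.030). For both genes every Setd1aDel library lay above every wild-type library. Scarb2 differed between experiments: 9.48, 9.37 and 8.96 TPM against 16.8, 17.3 and 17.6 TPM in the 16 h experiment (-0.83 ± 0.032), beside 35.2, 36 and 32.3 TPM against 33, 34.1 and 35.8 TPM in the 6 h experiment (not called). Tfe3 was the member called lower in the IFNB1 experiment, at 74.9, 83.9 and 72.5 TPM against 106, 96.4 and 100 TPM (-0.38 ± 0.055). It was also lower in the 6 h experiment (-0.26 ± 0.063). In the 16 h experiment Tfe3 was called higher, so it is among the 9 members called in opposite directions.

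**Figure D4:**
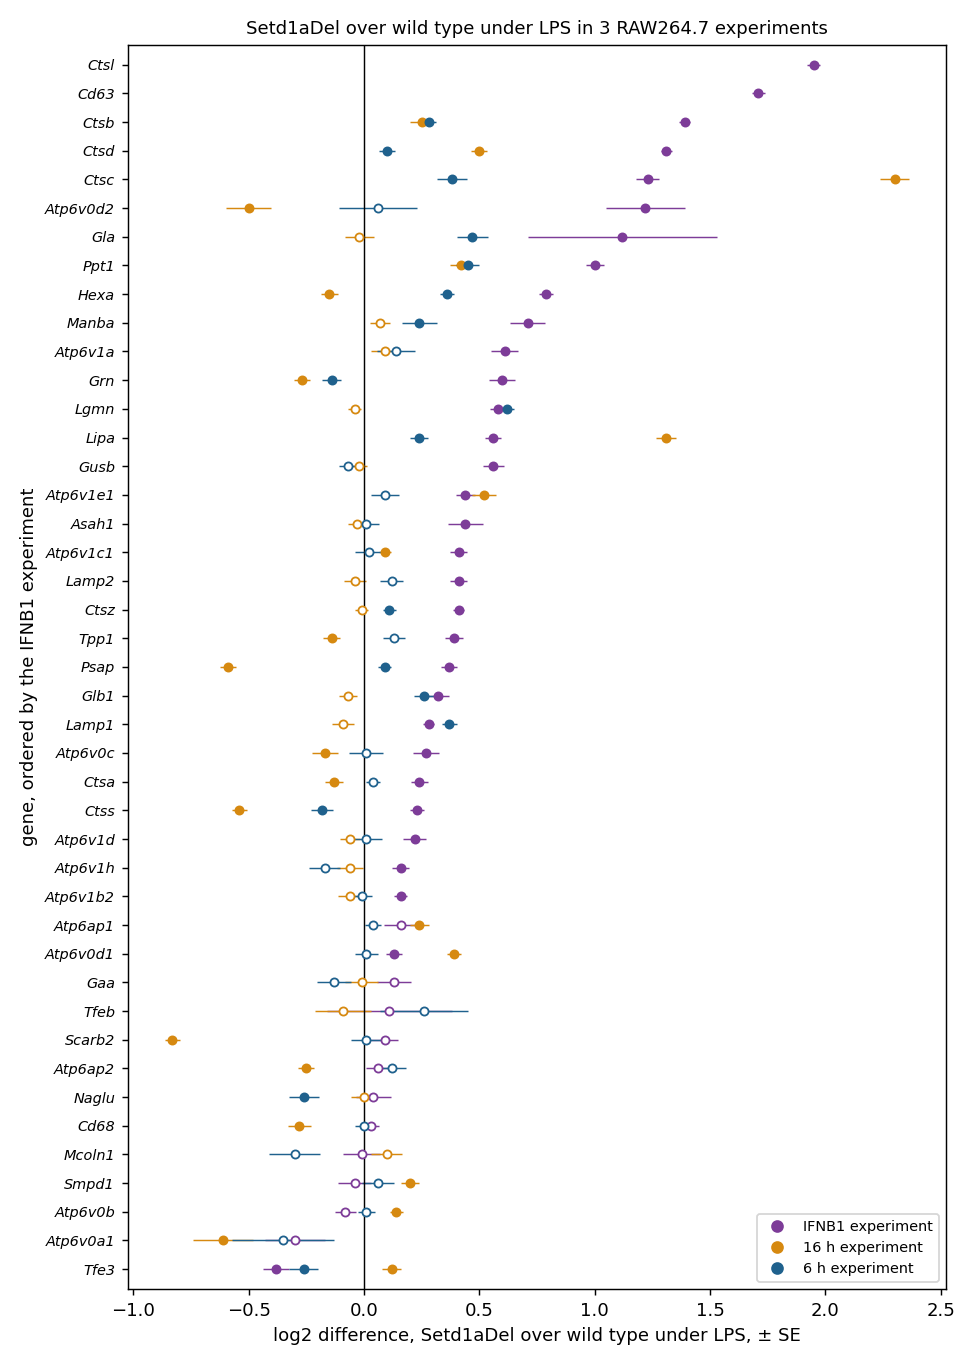
Log2 difference between Setd1aDel and wild-type cells with LPS for each member (rows, ordered by the IFNB1 experiment) in the 16 h, 6 h and IFNB1 experiments, with bars for the standard error and filled symbols for members called at an adjusted p under 0.05. Ctsc lies at 2.30, 0.38 and 1.23, and Scarb2 and Psap lie to the left of 0 in the 16 h experiment alone.

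Under the remaining treatments the counts in Setd1aDel cells followed the experiment. With Dex and LPS, 8 of 41 were higher and 21 lower in the 16 h experiment, against 17% and 47.6% of all genes. After scaling these were 15 and 12, against 30.4% and 30.1%. In the 6 h experiment 20 were higher and 4 lower, against 13.1% and 13.1%. Dex alone gave 18 higher and 3 lower, against 6.2% and 7.37%, and IFNB1 with LPS gave 29 higher and 2 lower of 43, against 15.8% and 38.4%. Lgmn, higher in Setd1aDel cells with vehicle, was lower with Dex and LPS in the 16 h experiment, at 46.9, 47.4 and 47.8 TPM against 80.9, 81.8 and 82 TPM (log2 -0.77 ± 0.028), but higher in the 6 h experiment, at 99.1, 101 and 100 TPM against 70.8, 72.1 and 75.4 TPM (0.46 ± 0.032).

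The response to LPS itself differed between Setd1aDel and wild-type cells for more members in the 16 h than in the 6 h experiment, though the 2 experiments were not tested against each other. In the 16 h experiment the difference of the responses was called upward for 9 members and downward for 18, against 13.1% and 20.3% of all genes. Lipa had the largest: with LPS it read 324, 294 and 289 TPM and with vehicle 210, 211 and 211 TPM in Setd1aDel cells, against 123, 118 and 121 TPM with LPS and 254, 264 and 253 TPM with vehicle in wild type, a difference of 1.60 ± 0.061 (adjusted p = 2.2e-11). It thus rose with LPS in Setd1aDel cells and fell in wild type. The difference was 1.38 ± 0.088 for Ctsc, -0.93 ± 0.046 for Scarb2, -0.80 ± 0.047 for Ctss, -0.71 ± 0.049 for Grn, -0.65 ± 0.067 for Ppt1 and -0.52 ± 0.040 for Lgmn. In the 6 h experiment 2 were called upward and 2 downward, against 2.97% and 2.63% (1 and 8 after scaling, against 2.12% and 3.64%). Lipa was at 0.38 ± 0.056, Grn at -0.29 ± 0.057 and Ctsd at -0.26 ± 0.049.

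The response to Dex on top of LPS differed downward for 11 members and upward for 0 in the 16 h experiment, against 7.68% and 2.88% of all genes. At an unadjusted p under 0.05 these counts were 14 and 0. Ctsc (-0.86 ± 0.088), Lgmn (-0.74 ± 0.040) and Ppt1 (-0.54 ± 0.067) had the largest differences. The 6 h experiment had 3 members upward and 1 downward, against 3.25% and 2.04% (2 and 2 after scaling, against 2.59% and 2.64%). Of these, Gusb had a difference of 0.27 ± 0.052 and Ctsd of 0.25 ± 0.049. For Dex alone limma called 0 members in either direction, against 0.189% upward and 0.1% downward of all genes, with 4 and 4 at an unadjusted p under 0.05. The response to IFNB1 differed upward for 1 member and downward for 3, against 3.31% and 8.01% (6 and 1 after scaling, against 5.72% and 3.03%). The 1 member called upward without scaling was Ctsc, at 187, 189 and 188 TPM with IFNB1 and LPS and 82.7, 78.5 and 76.3 TPM with LPS in Setd1aDel cells, against 33.8, 37.4 and 38.3 TPM and 34.4, 33.3 and 31.5 TPM in wild type. The difference was 1.10 ± 0.071 (adjusted p = 8.25e-06), and in wild type the log2 change of Ctsc with IFNB1 was 0.14 (not called, but 0.22 and called after scaling).

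**Figure D5:**
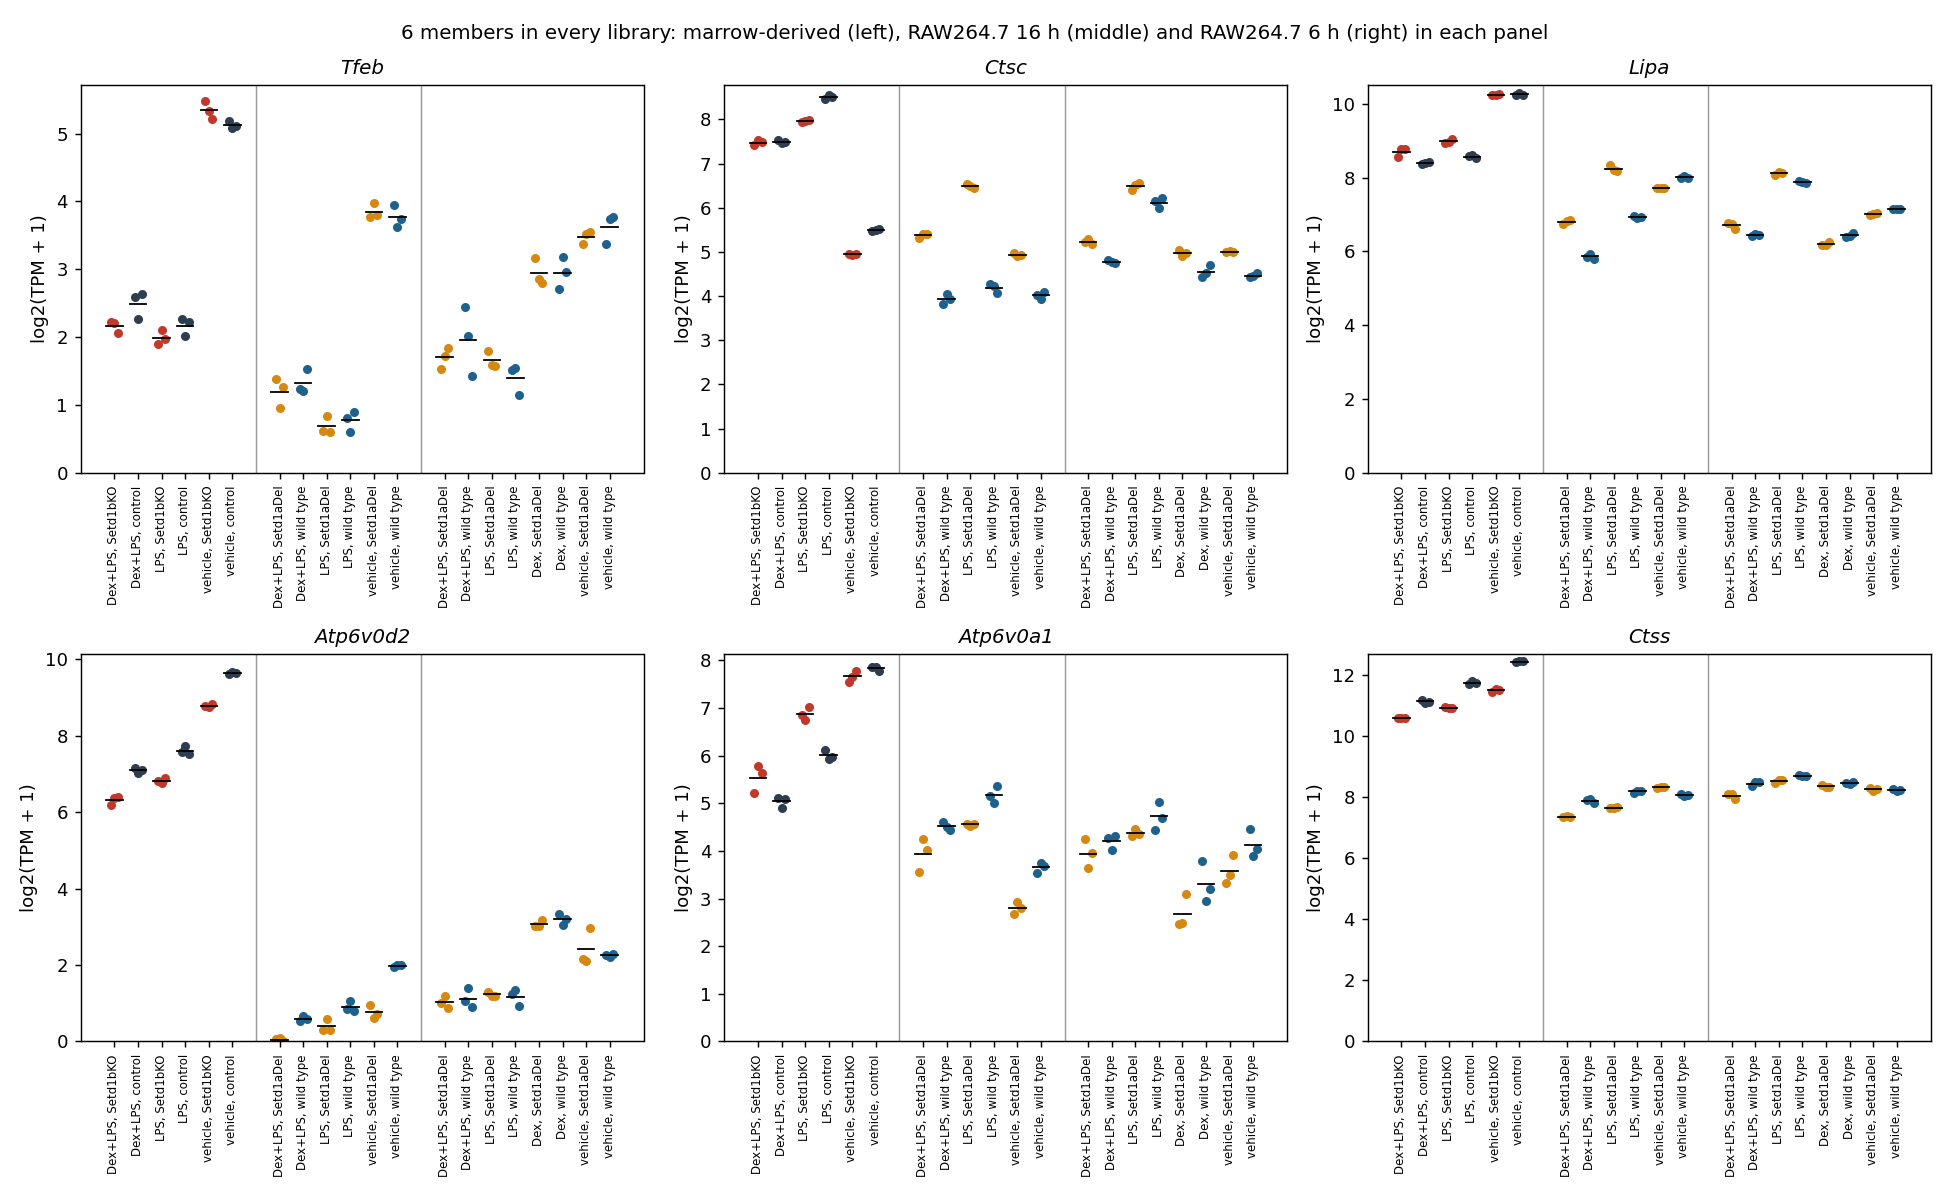
Level as log2(TPM + 1) of Tfeb, Ctsc, Lipa, Atp6v0d2, Atp6v0a1 and Ctss in the marrow, 16 h and 6 h experiments, with a point for each library and a line for each group's mean. Tfeb is lower with LPS than with vehicle in each experiment, and Lipa with LPS lies below vehicle in marrow and above it in the 6 h experiment.

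Further lysosomal genes outside the 44 also varied between the RAW264.7 experiments. Gpnmb, a glycoprotein of lysosomes and melanosomes, was at 1.19, 1.21 and 1.09 TPM in Setd1aDel cells with vehicle in the 16 h experiment, against 59.9, 68.1 and 61.2 TPM in wild type (log2 -4.89), at 25, 27.7 and 33 TPM against 91.8, 81.5 and 77.4 TPM in the 6 h experiment (-1.52), and at 13.5, 11.2 and 12.8 TPM against 1, 1.5 and 0.8 TPM with LPS in the IFNB1 experiment (2.69). Igf2r, the receptor that brings newly made hydrolases to lysosomes, was at 0.129, 0.138 and 0.148 TPM in Setd1aDel cells with vehicle in the 16 h experiment, against 9.21, 9.54 and 8.77 TPM in wild type. Of the further lysosomal genes tested, 18 of 42 were higher and 5 lower in Setd1aDel cells with vehicle in the 16 h experiment, against 15.3% and 32.9% of all genes. In the 6 h experiment 8 of 42 were higher and 9 lower, against 6.58% and 15.6%, and with LPS in the IFNB1 experiment 19 of 42 were higher and 4 lower, against 17.7% and 24.9%. Libraries labelled Setd1bKO had 20 of 45 higher and 7 lower with vehicle, against 9.89% and 15.4%.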

How the data were processed

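RNA-seq of poly(A)-selected RNA was analysed from the authors' deposited gene tables, in which values are TPM (each gene's length-scaled share of a library's transcripts), named as such for both Dex tables and, for the IFNB1 table, by its values alone, which are given to 1 decimal. The submitters' processing notes name Salmon 0.10.2, DESeq2, R 3.6.0 and GRCm38.p6, with no role for each. Read depth cannot be read from TPM, so no counting interval is given. TPM are shares of a library, so a few very abundant transcripts lower all others. The tables were normalized separately and each experiment was tested alone. The filter kept genes that reached 1 TPM in 3 or more libraries, and these were tested on log2(TPM + 1) with limma 3.58.1 in R 4.3.3, with 1 mean per group, a trended prior and two-sided p-values, adjusted by Benjamini-Hochberg over all genes tested. This left 9159, 8964, 8981 and 10923 genes in the marrow, 16 h, 6 h and IFNB1 experiments. A gene was called at an adjusted p under 0.05. Differences of responses are interaction contrasts of the same fits. The 6 alternatives were a pseudocount of 0.1 TPM, no filter, median-of-ratios scaling, the replicate number as a block, the compared groups alone, and each library left out. The steps were checked on simulated data. All 72 libraries had a group from the labels, and no 2 held identical values. Named genes are, per comparison and direction, up to 6 called members with the largest change and the 2 most abundant members not called, with Tfeb, Tfe3, Atp6v0d1 and Atp6v0d2 anywhere, and up to 3 called genes of each other list. Members named beyond this rule (among them Ctsc and Lipa in some comparisons, Lamp1, Lamp2, Mcoln1, Hexa and pump genes under LPS) were chosen after their values were seen. The members and lists were chosen with earlier results of these data known.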

Additional observations from a re-analysis of the deposited data

Results flagged for a closer look

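The following responses of named members differed between genotypes by an interaction contrast in limma, on the log2 scale, as mutant response minus control or wild-type response. In marrow-derived macrophages the LPS response in libraries labelled Setd1bKO differed from that in control by 1.02 for Atp6v0a1, 0.43 for Lipa and -0.24 for Grn. Their Dex response on top of LPS differed by 0.51 for Ctsc, 0.40 for Cd68 and 0.27 for Ctss. Ctsc and Ctss were lower with Dex in both genotypes, and by less where labelled Setd1bKO. Cd68 was higher with Dex there, at 603, 615 and 613 TPM against 514, 510 and 516 TPM with LPS, and lower with Dex in control, at 876, 868 and 900 TPM against 991, 948 and 996 TPM with LPS. Setd1b RNA was not lower in those libraries, so these differences follow the label only.

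In RAW264.7 cells of the 16 h experiment the LPS response in Setd1aDel cells differed from wild type by 1.60 for Lipa, 1.38 for Ctsc, -0.93 for Scarb2, -0.80 for Ctss, -0.71 for Grn, -0.65 for Ppt1 and -0.52 for Lgmn. In the 6 h experiment it differed by 0.38 for Lipa, -0.29 for Grn and -0.26 for Ctsd, so Lipa and Grn kept their sign in both. The Dex response on top of LPS differed by -0.86 for Ctsc, -0.74 for Lgmn and -0.54 for Ppt1 in the 16 h experiment, and by 0.27 for Gusb and 0.25 for Ctsd in the 6 h experiment. The IFNB1 response differed by 1.10 for Ctsc. The macrophage marker sum also differed between these genotypes, as given above, and its part was not tested.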

How the results depend on the processing

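Of the counts of members called, 323 recomputed values outside the left-out libraries stayed within 1.5 times and 37 did not. Most of those came with median-of-ratios scaling, which sets the median of all genes near 0. On the unscaled values that median was -0.49 and -0.37 for LPS in marrow control and labelled Setd1bKO cells, 0.18 and 0.15 for Dex there, -0.38 and -0.41 for LPS in wild-type and Setd1aDel cells of the 16 h experiment, and -0.24 and -0.21 in the 6 h experiment. Scaling gave these numbers higher: 7 (marrow LPS, control), 6 (marrow LPS, labelled Setd1bKO), 2 and 2 (marrow Dex, control and labelled Setd1bKO), 16 (labelled Setd1bKO against control with LPS), 3 and 1 (16 h Dex, wild type and Setd1aDel), 15 (16 h Setd1aDel with Dex and LPS), 16 (6 h LPS, Setd1aDel), 4 (6 h Dex on LPS, Setd1aDel), 1 (6 h difference in LPS response), 12 and 16 (IFNB1, wild type and Setd1aDel) and 6 (difference in IFNB1 response). It gave these numbers lower: 27 and 27 (marrow Dex), 10 (labelled Setd1bKO with LPS), 14 (marrow difference in LPS response), 18 (16 h Dex, wild type), 12 (16 h Setd1aDel with Dex and LPS), 12 (6 h Dex on LPS, Setd1aDel), 1 (6 h Setd1aDel with vehicle), 8 and 2 (6 h differences in LPS and Dex response), 7 (IFNB1, Setd1aDel) and 1 (difference in IFNB1 response). The compared groups alone, with fewer libraries for the spread, gave 3 lower (labelled Setd1bKO with Dex and LPS), 0 higher and 10 lower (16 h Dex, Setd1aDel), 2 and 4 higher (6 h Dex on LPS, wild type and Setd1aDel), 3 lower (6 h Dex alone, Setd1aDel), 1 lower (6 h Setd1aDel with Dex and LPS), 1 higher (6 h difference in LPS response) and 0 lower (6 h difference in Dex response on LPS). Without the filter the difference in IFNB1 response had 0 lower. Replicate numbers gave no clear sign of pairing. Same-numbered libraries of different groups deviated together with a correlation over 0.1 in 4 of 45, 4 of 45, 4 of 84 and 1 of 18 pairs of libraries. These correlations cannot show whether the libraries were paired. The replicate block moved 1 count of calls past 1.5 times, the difference in response to Dex alone, where it called 1 member higher against 0.

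Leaving out each library gave 3 to 5 lower for labelled Setd1bKO with Dex and LPS (3 without Setd1bKO DexLPS replicate 3), 3 to 6 higher for the marrow difference in LPS response (6 without Setd1bKO LPS replicate 2), 0 to 1 lower for that in Dex response, 5 to 10 higher for 16 h Dex in wild type (5 without wild-type LPS replicate 3), 13 to 19 lower for 16 h Dex in Setd1aDel (13 without Setd1aDel DexLPS replicate 1), 2 to 4 higher and 5 to 7 lower for 6 h Dex on LPS in wild type, 6 to 10 higher in Setd1aDel (6 without Setd1aDel LPS replicate 2), 3 to 6 lower for 6 h Dex alone in wild type (3 without Dex replicate 2), 2 to 5 lower in Setd1aDel (2 without vehicle replicate 2), 1 to 3 higher for the 6 h difference in LPS response, 0 to 2 lower for that in Dex response on LPS, and 1 to 2 higher and 0 to 3 lower for the difference in IFNB1 response. Of the named members, 2 changed sign, both with scaling for LPS in marrow control cells: Ctsz at 0.48 and Lamp2 at 0.30. The cause of these changes was not tested beyond the settings themselves. Since depth is unknown, values of a few TPM or less, such as Atp6v0d2 in RAW264.7 cells, have an error that only the 3 libraries show.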
